A study of Mus musculus with 12 samples.

Results

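Complement is a cascade of plasma and tissue proteins that mark and clear microbes, immune complexes and dying cells. C1q binds its target and starts the classical pathway through the proteases C1r and C1s, which cleave C4 and C2; factor B and factor D build the alternative pathway on C3b; all routes converge on C3, whose fragment C3a acts through the C3a receptor, and then on C5, whose fragment C5a acts through the C5a receptor. C1 inhibitor holds C1r and C1s in check. The liver makes most of the circulating C3, C4 and factor B, whereas C1q comes mainly from macrophages and fibroblasts make C1r, C1s, C3, C4 and C1 inhibitor in connective tissue.

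The RNA levels of 9 complement genes were followed in mouse tissue from beside the spine after surgery: C1qa, C1qb and C1qc, C3, C4b, Cfb, the receptors C3ar1 and C5ar1, and Serping1, which encodes C1 inhibitor. They were taken by gene symbol from a deposited table of 18996 genes, and all 9 were among the 14765 genes that passed the filter on low counts. The study sequenced polyA RNA from BALB/c mice aged 5 to 7 weeks by its methods, with 4 mice in each of 3 groups. No operation mice gave untouched paraspinal soft tissue. SHAM mice had the soft tissue beside the spine removed while the laminae were left in place, and Laminectomy mice also lost laminae, the bony arches over the spinal canal; both gave scar along with soft tissue on day 7 after surgery, by the study's methods. The labels name no transgene and no treatment agent in any group. The study's design text says that 3 of the 4 mice per group went into its own comparisons without naming them in the sources used here, so all 4 entered the values below.

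Library totals lay between 16802989 and 18077868 counts. Levels are given as CPM, the count of a gene relative to the library total after scaling for composition, in mice 1 to 4 of a group in that order. The tissue label was checked against marker genes: 8 of 8 skeletal muscle markers were present in every mouse, with summed levels of 79558 to 112494 CPM in No operation, 1968 to 7943 CPM in SHAM and 2601 to 11187 CPM in Laminectomy. The summed level of 11 macrophage markers ran the other way, from 706 to 1883 CPM in No operation, 4497 to 8202 CPM in SHAM and 3238 to 5324 CPM in Laminectomy. Summed levels of 8 fibroblast markers were 6451 to 19779, 40222 to 57530.1 and 36317 to 42288 CPM. Most of each SHAM and Laminectomy sum came from Col1a1 and Col3a1, with SHAM means of 19532 and 25849 CPM. The list did not rise as a whole in SHAM against No operation. Pdgfra, Lum, Col1a1 and Col3a1 were called higher, Dcn was called lower, and Dpt, Pi16 and Fap were not called. In bulk tissue, fewer cells of a type and less RNA per cell cannot be told apart. SHAM mouse 1 stood apart as the highest of its group for 9 of the 9 genes, and Laminectomy mouse 1 was the highest of its group for 5 genes and the lowest for 3. No operation mouse 1 was the highest of its group for 7 of the 9 genes. Laminectomy mice 2 and 3 stood apart in 5 markers of neurons and glia, with summed levels of 158 and 56.7 CPM against 1.97 to 13.5 CPM in the other 10 mice, and Gfap, an astrocyte marker, was called higher in Laminectomy than in No operation (log2 fold change 4.50, adjusted p = 0.0116 by edgeR). The part of these markers in the complement values was not tested. Results of the 9 genes that rest on these SHAM and Laminectomy mice are also given without them. Those of Gfap and of the other complement genes are not.

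All 3 C1q genes lie side by side on the minus strand of chromosome 4 of GRCm38, C1qb at 136880129 to 136886187, C1qc at 136889804 to 136893065 and C1qa at 136895917 to 136898803. C4b, at 34728380 to 34743882, Cfb, at 34856374 to 34862518, and C3, at 57203970 to 57228136, lie on chromosome 17. C3ar1 is on chromosome 6, C5ar1 on chromosome 7 and Serping1 on chromosome 2.

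RefSeq sequences upstream of the RefSeq start (GRCm38.p6) were found for 5 of the 9 genes, namely C1qb, C1qc, C3ar1, C5ar1 and C3. The GENCODE gene reaches 151 bases into the window of C1qc, 202 bases into that of C5ar1 and 4 bases into that of C3ar1, including 151, 28 and 4 exon bases, so these 3 windows are not wholly upstream by that annotation and are not printed. C1qb is shown for the C1q genes, which moved together, and C3 beside it as a gene that did not move with them. Both strands of the 250 bases before each start were searched for GAGGAA, the core recognised by the myeloid factor PU.1, for TTCNNNGAA, a palindrome bound by STAT factors, and for GAAANNGAA, an interferon-stimulated element. These letters occurred in 23.3%, 7.02% and 7.13% of 32851 RefSeq windows of that length. Each sequence is on its gene's strand, 5′ to 3′, with the matched motif in capitals.

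C1qb (chr4:136886201-136886450, minus strand): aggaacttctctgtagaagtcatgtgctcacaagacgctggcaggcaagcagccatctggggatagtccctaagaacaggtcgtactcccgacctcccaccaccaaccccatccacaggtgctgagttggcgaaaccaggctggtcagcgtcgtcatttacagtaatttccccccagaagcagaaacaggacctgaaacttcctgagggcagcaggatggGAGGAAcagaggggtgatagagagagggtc

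C3 (chr17:57228137-57228386, minus strand): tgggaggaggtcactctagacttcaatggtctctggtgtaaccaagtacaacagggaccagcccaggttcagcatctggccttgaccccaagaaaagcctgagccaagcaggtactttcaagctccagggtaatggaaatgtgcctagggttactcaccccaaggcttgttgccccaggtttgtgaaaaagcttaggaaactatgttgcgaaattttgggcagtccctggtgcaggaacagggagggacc

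C1qb held 1 GAGGAA, 30 bases before its RefSeq start. C1qc held 1 on the other strand, read as TTCCTC, 193 bases before its RefSeq start. C5ar1 held 1 interferon-stimulated element on the other strand, 66 bases before its RefSeq start and inside the GENCODE gene, and no 2 of these matches overlapped. The C3 and C3ar1 windows held none of the 3 sets of letters, and no window of the 5 held the STAT palindrome. The matches describe these windows only.

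**Figure D1:**
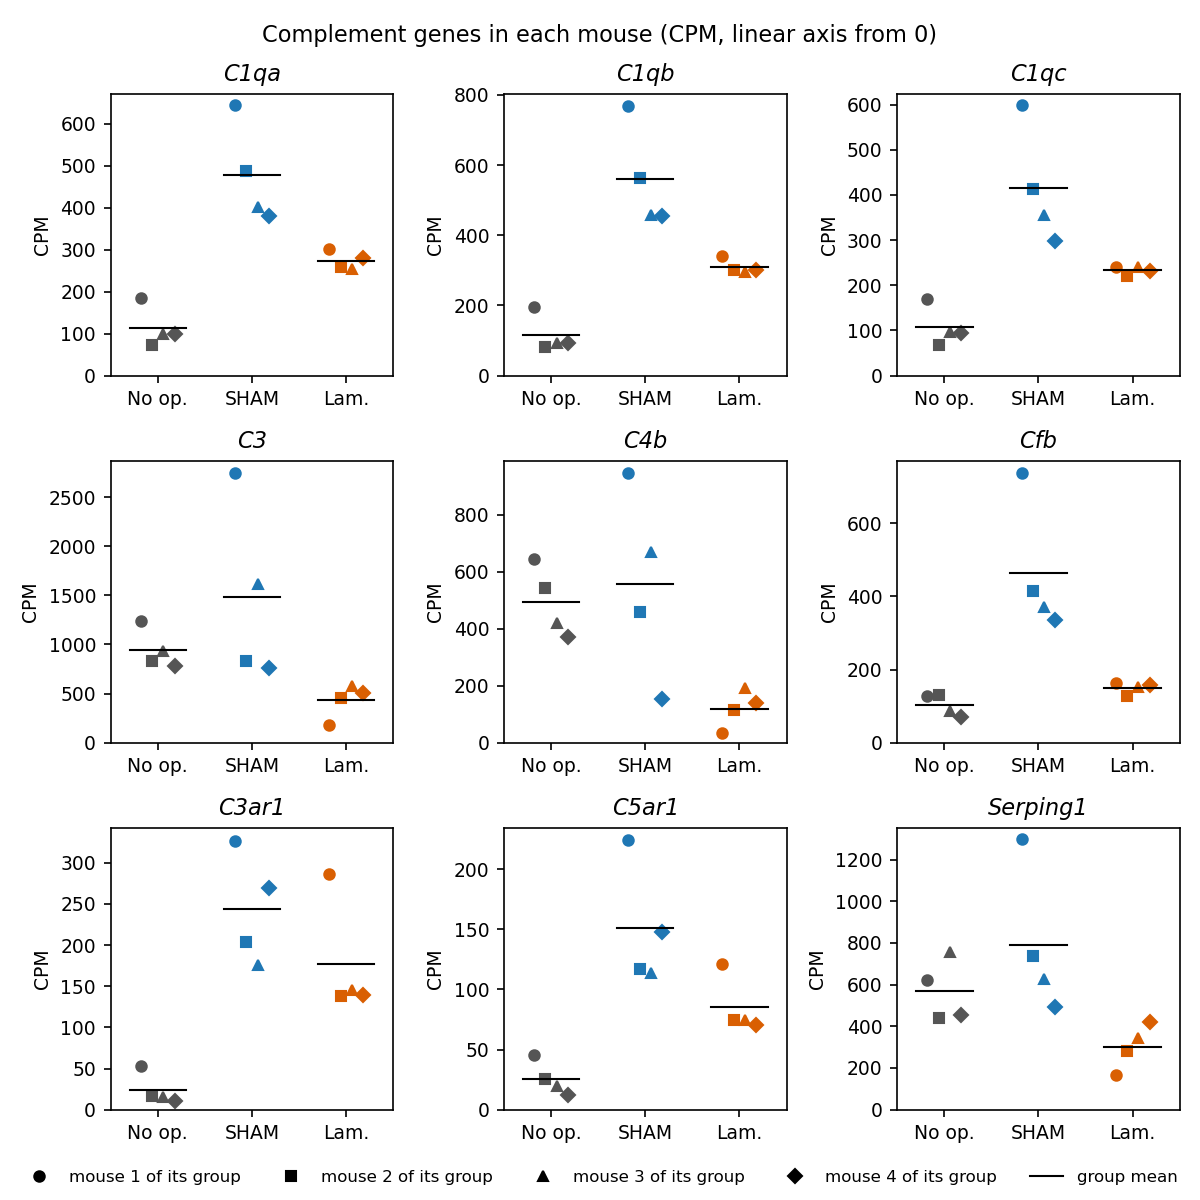
CPM (linear axes from 0) of the 9 complement genes in the 4 mice of each group, with a symbol for each mouse and a line at the group mean. C1q levels stepped from No operation through Laminectomy to SHAM with no overlap, whereas C3, C4b and Serping1 had their lowest means in Laminectomy.

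The first question was how removal of soft tissue alone changed the complement genes. In SHAM tissue 6 of the 9 rose against No operation: the 3 C1q genes, Cfb and both receptors. None fell, and the levels of C3, C4b and Serping1 were not called different. A gene was called when edgeR's quasi-likelihood test gave an adjusted p (Benjamini-Hochberg over all genes tested) below 0.05 and a log2 fold change beyond 0.5; 25.7% of all genes tested were called higher and 25.1% lower. The 6 genes were also higher in every SHAM mouse than in every No operation mouse, a separation shown by 26.7% of all genes. The median log2 fold change of the 9 genes was 2.07, against 0.00 over all genes.

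C1q is a bundle of 3 kinds of chain, A, B and C, and its genes moved in step. C1qa was at 186, 72.3, 98.2 and 98.6 CPM in No operation and at 643, 488, 400.3 and 381 CPM in SHAM. C1qb was at 196, 81.9, 93.6 and 94.0 CPM in No operation and at 769.7, 562, 457 and 454 CPM in SHAM. C1qc was at 169, 68.6, 95.7 and 93.4 CPM in No operation and at 598, 413, 355 and 297 CPM in SHAM. In both groups mouse 1 was the highest for all 3 chains, and the groups did not overlap. The rise was 4.20-fold for C1qa (log2 fold change 2.07, SE of the log2 value 0.273, adjusted p = 6.66e-05 by edgeR). For C1qb it was 4.81-fold (2.27, SE 0.28, adjusted p = 4.56e-05) and for C1qc 3.90-fold (1.96, SE 0.274, adjusted p = 0.000101). The macrophage markers moved with them, since 10 of 11 were called higher in SHAM, Cd163 being the exception; their part in the C1q values was not tested.

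Factor B, the protease part of the alternative pathway convertase, rose as well. Cfb was at 128, 130.4, 87.3 and 69.3 CPM in No operation and at 738, 414, 370.2 and 334 CPM in SHAM, with the lowest SHAM mouse above the highest No operation mouse. The rise was 4.48-fold (log2 fold change 2.16, SE 0.275, adjusted p = 5.44e-05 by edgeR). Of the annotated Cfb exon bases, 79.5% are shared on the same strand with the overlapping model Gm20547, so the Cfb count depends on how such reads were assigned.

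Both anaphylatoxin receptors rose, the C3a receptor by the most of the 9 genes. C3ar1 was at 53.4, 16.9, 14.9 and 10.4 CPM in No operation and at 327, 204, 176 and 269.6 CPM in SHAM. C5ar1 was at 45.6, 25.9, 19.4 and 12.6 CPM in No operation and at 224, 117, 114 and 148 CPM in SHAM. Neither gene overlapped between the groups, and No operation mouse 1 was the highest of its group for both. The fold changes were 10.2 for C3ar1 (log2 fold change 3.35, SE 0.504, adjusted p = 0.000167 by edgeR) and 5.84 for C5ar1 (2.54, SE 0.377, adjusted p = 0.000152). In the 12 fits that left out 1 mouse, the log2 fold changes ran from 3.11 to 4.12 for C3ar1 and from 2.29 to 2.97 for C5ar1. Both genes were called in each fit.

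C3, C4b and Serping1 were spread widely among SHAM mice. C3, the central component, was at 1243, 828, 931 and 781 CPM in No operation and at 2745, 832, 1616 and 756 CPM in SHAM. C4b, the main mouse C4 gene, was at 644, 543, 421 and 370 CPM in No operation and at 944, 459, 668 and 153 CPM in SHAM. Serping1 was at 620.1, 438, 757 and 456 CPM in No operation and at 1297, 738, 629 and 494 CPM in SHAM. SHAM mouse 1 was the highest and mouse 4 the lowest for each of the 3 genes, and the groups overlapped. The log2 fold changes were 0.65 for C3 (SE 0.435, adjusted p = 0.211 by edgeR), 0.17 for C4b (SE 0.538, adjusted p = 0.80) and 0.48 for Serping1 (SE 0.339, adjusted p = 0.241). Without mouse 1 of SHAM and of Laminectomy, these values were 0.21, -0.17 and 0.16, while the 6 called genes were still called.

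The second question was what surgery that opened the spinal canal did. In Laminectomy tissue 5 of the 9 genes rose against No operation, namely the 3 C1q genes and both receptors, and 3 fell, namely C3, C4b and Serping1; Cfb was not called. Over all genes tested, 24.2% were called higher and 24.4% lower. All 5 genes that rose were higher in every Laminectomy mouse than in every No operation mouse, as were 27.0% of all genes, and the 3 that fell were lower in every mouse, as were 29.0%. The median log2 fold change of the 9 genes was 1.13, against 0.01 over all genes.

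The C1q genes lay in a narrow band. C1qa was at 301, 258, 253 and 281 CPM in Laminectomy, C1qb at 339.9, 302, 296 and 302 CPM, and C1qc at 239.7, 221, 241 and 231 CPM. Their SDs of 22.0, 20.1 and 9.49 CPM were below those of SHAM, 119.6, 148 and 130.2 CPM (n = 4 mice each). The rises over No operation were 2.40-fold for C1qa (log2 fold change 1.26, SE 0.266, adjusted p = 0.00177 by edgeR), 2.66-fold for C1qb (1.41, SE 0.272, adjusted p = 0.00101) and 2.19-fold for C1qc (1.13, SE 0.268, adjusted p = 0.00365). Of the macrophage markers 9 of 11 were called higher, and Cd163 and Mrc1 were not.

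C3ar1 was at 286, 138, 146 and 139 CPM in Laminectomy and C5ar1 at 121, 74.4, 74.2 and 70.7 CPM, mouse 1 being far above the other mice for both. The fold changes were 7.43 for C3ar1 (log2 fold change 2.89, SE 0.494, adjusted p = 0.000467 by edgeR) and 3.29 for C5ar1 (1.72, SE 0.367, adjusted p = 0.00192). Without mouse 1 of SHAM and of Laminectomy, the log2 fold changes were 2.59 and 1.52, with adjusted p = 0.00142 and 0.00378.

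C4b fell the furthest. It was at 32.5, 113, 190.4 and 139 CPM in Laminectomy, where the highest mouse was below every No operation mouse (log2 fold change -2.06, SE 0.56, adjusted p = 0.00796 by edgeR). Its near-identical copy C4a was at 0.363 to 1.23 CPM in the 12 mice, and with the counts of both summed the log2 fold change was -2.05. C4a was too low for the sum to move the value far. The sum does not show how reads matching both genes were handled. The C4b call held in each of the 12 fits that left out 1 mouse.

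C3 was at 177, 457, 580.4 and 508 CPM and Serping1 at 164, 281, 342 and 419 CPM in Laminectomy, with mouse 1 the lowest for both. C3 fell by 1.14 on the log2 scale (SE 0.439, adjusted p = 0.042 by edgeR) and Serping1 fell by 0.91 (SE 0.341, adjusted p = 0.0363). Both calls were weak. The C3 call was lost without any single No operation mouse, without SHAM mouse 3 and without Laminectomy mouse 1, 2 or 4, with adjusted p from 0.053 to 0.098 and log2 fold changes from -1.22 to -0.88. The Serping1 call was lost without No operation mouse 1 or 3 and without Laminectomy mouse 1, 2 or 3, with adjusted p from 0.0532 to 0.102 and log2 fold changes from -0.98 to -0.71. With plain library sizes, which moved the median log2 fold change of all genes by 0.319 in this comparison, the log2 fold changes were -0.80 for C3 and -0.58 for Serping1, and neither was called. Adding the replicate number to the fit lost both calls. Leaving out mouse 1 of both SHAM and Laminectomy kept both calls, at -0.86 (adjusted p = 0.0253) and -0.69 (adjusted p = 0.0302). Leaving out Laminectomy mice 2 and 3 together, which left 2 mice in that group, lost both, at -1.46 (adjusted p = 0.067) and -0.96 (adjusted p = 0.117), while the C1q genes, C4b and both receptors were still called.

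Of the 8 fibroblast markers 2 were called lower with C3, C4b and Serping1 in Laminectomy and 4 higher, while no macrophage marker was called lower. Pi16, a marker of adventitial fibroblasts, was at 353, 154, 242 and 274 CPM in No operation and at 5.72, 57.8, 68.9 and 53.3 CPM in Laminectomy. Dcn, which encodes decorin, was at 2322, 2826, 5245 and 2757 CPM in No operation and at 505, 1007, 1210.2 and 1242 CPM in Laminectomy. Both were called lower (adjusted p = 0.00969 and 0.00163 by edgeR), whereas Col1a1, Col3a1, Lum and Fap were called higher. Laminectomy mouse 1, the lowest for C3, C4b and Serping1, was also the lowest of the 12 mice for Pi16, Dcn, Dpt and Cd163 (the last not called, adjusted p = 0.102 by edgeR). All 5 adipocyte markers were called lower in Laminectomy as well, with log2 fold changes from -4.44 for Retn to -3.94 for Adipoq, and the same mouse was the lowest of the 12 for each of them. The part of all these markers in the complement values was not tested. Summed levels of 6 hepatocyte markers stayed at or below 2.7 CPM in all 12 mice, with Fga at 0 in each.

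Cfb, with Laminectomy levels of 162, 128, 153 and 157 CPM, overlapped No operation, with a log2 fold change of 0.53 (95% interval 0.02 to 1.05, adjusted p = 0.101 by edgeR). It was called higher with plain library sizes (0.85, adjusted p = 0.0139), with only the 2 groups in the fit (0.54, adjusted p = 0.0484) and without SHAM mouse 1 (0.54, adjusted p = 0.0319). Adding the replicate number to the fit also gave a call.

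**Figure D2:**
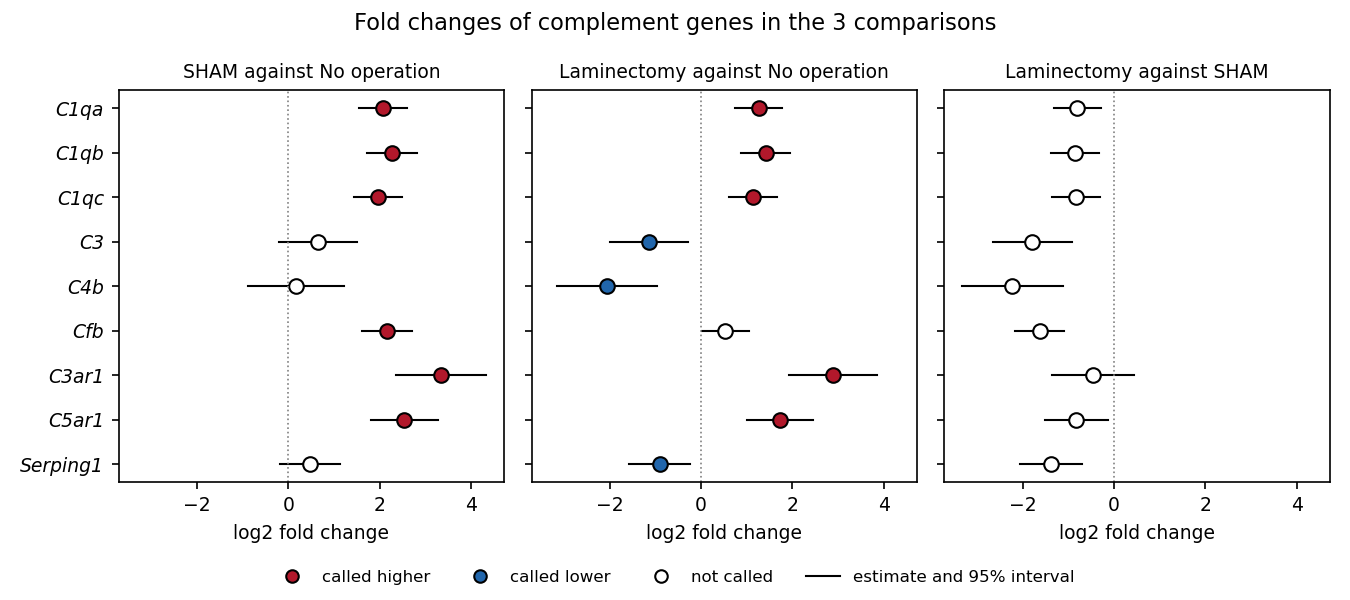
Log2 fold changes of the 9 genes in the 3 comparisons by edgeR, as points with lines for 95% intervals, filled where called higher (red) or lower (blue). All 9 points lie below 0 for Laminectomy against SHAM, and none is filled there.

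The third question was what opening the canal added to soft tissue removal. All 9 genes had lower means in Laminectomy than in SHAM, by 1.38-fold for C3ar1 to 4.68-fold for C4b, but edgeR called none of them, nor any of the 14765 genes (0%). At an unadjusted p below 0.05 edgeR found 2359 of all genes, and 8 of the 9 complement genes were lower at that level, all but C3ar1, against 9.03% of all genes. In 6 of the 9 genes (C1qa, C1qb, C1qc, C3, Cfb and Serping1) every Laminectomy mouse was below every SHAM mouse, against 5.07% of all genes. DESeq2, the tool named in the study's methods, called 5 of the 9 lower, where it called 4.35% of 15997 genes in either direction and 2.24% lower. The median log2 fold change of the 9 was -0.85, against 0.00 over all genes.

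Cfb had the smallest adjusted p of the 9 genes, a value of 0.0698 that 17 genes of the table shared. Its 4 Laminectomy mice, at 128 to 162 CPM, lay below the 4 SHAM mice at 334 to 738 CPM, a 3.09-fold difference (log2 fold change -1.63, 95% interval -2.16 to -1.10, adjusted p = 0.0698 by edgeR and 7.13e-06 by DESeq2). Without SHAM mouse 1 the log2 fold change was -1.30, and without mouse 1 of both groups it was -1.37 (adjusted p = 0.178 for each by edgeR).

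C3, C4b and Serping1 showed differences of the same direction with wider errors. The log2 fold changes were -1.79 for C3 (95% interval -2.66 to -0.91, adjusted p = 0.117 by edgeR and 0.00358 by DESeq2), -2.23 for C4b (-3.33 to -1.12, adjusted p = 0.12 and 0.00283) and -1.39 for Serping1 (-2.06 to -0.71, adjusted p = 0.117 and 0.00495). C4b overlapped between the groups, because SHAM mouse 4, at 153 CPM, lay below Laminectomy mouse 3, at 190.4 CPM. Without mouse 1 of both groups the log2 fold changes were -1.07, -1.55 and -0.85 (adjusted p = 0.21, 0.22 and 0.217 by edgeR), each closer to 0 than with those mice. Without Laminectomy mice 2 and 3 they were -2.12, -2.69 and -1.44, and C3ar1 was at -0.20; no gene of the 9 was called. Of the 8 fibroblast markers none was called by edgeR between these groups, but 5 had an unadjusted p below 0.05, of which Pi16 (-2.39), Dcn (-0.79), Dpt (-0.72) and Pdgfra (-0.62) were lower in Laminectomy and Fap (0.76) higher. All 5 adipocyte markers were lower by sign, from -2.10 to -1.33, with none called. The part of these markers in the complement values was not tested.

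The C1q genes were between 1.75-fold and 1.81-fold lower in Laminectomy, with log2 fold changes of -0.81 for C1qa, -0.85 for C1qb and -0.83 for C1qc (adjusted p = 0.179, 0.169 and 0.175 by edgeR). DESeq2 called C1qb alone of the chains (adjusted p = 0.0436, against 0.0566 for C1qa and 0.0507 for C1qc). Of the 11 macrophage markers 10 were lower in Laminectomy than in SHAM by sign, and edgeR called none. By edgeR 7 of the 11 had an unadjusted p below 0.05, all of them lower, against 9.03% of all genes. The part of these markers in the C1q values was not tested. Without SHAM mouse 1 the C1q log2 fold changes were -0.62, -0.66 and -0.60, and without mouse 1 of both groups they were -0.69, -0.72 and -0.64 (adjusted p = 0.345, 0.328 and 0.367). For the receptors the log2 fold change was -0.46 for C3ar1 (95% interval -1.36 to 0.44, adjusted p = 0.643 by edgeR) and -0.83 for C5ar1 (-1.52 to -0.13, adjusted p = 0.289), and both genes overlapped between the groups. Without mouse 1 of both groups these values were -0.63 and -0.80 (adjusted p = 0.648 and 0.376 by edgeR). The C3ar1 value was -0.28 without SHAM mouse 1 and -0.79 without Laminectomy mouse 1.

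Levels were compared between genes only after division by exon length. Per kilobase of annotated exon, Serping1 had the highest mean in No operation, at 244 ± 64.7 CPM per kb (SD, n = 4), followed by C3 at 184 ± 40.4, C1qa at 109 ± 48.0, C1qb at 107 ± 49.2, C4b at 86.8 ± 21.6, C1qc at 55.2 ± 22.3 and Cfb at 36.7 ± 10.7. The receptors came last, C5ar1 at 10.1 ± 5.53 and C3ar1 at 5.55 ± 4.62 CPM per kb. In that order the ranges of neighbours overlapped except between Cfb and C5ar1.

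In SHAM the order per kilobase was headed by C1qb at 515 ± 136 and C1qa at 459.7 ± 115 CPM per kb (SD, n = 4), ahead of Serping1 at 339.6 ± 152, C3 at 289 ± 179.7, C1qc at 215 ± 67.4, Cfb at 164 ± 65.6, C4b at 97.6 ± 58.7, C5ar1 at 58.7 ± 19.9 and C3ar1 at 56.7 ± 15.7, and every pair of neighbours overlapped. In Laminectomy C1qb at 285 ± 18.5 and C1qa at 263 ± 21.1 CPM per kb again led, above Serping1 at 129.6 ± 46.2 without overlap. C1qc followed at 121 ± 4.91 and C3 at 83.7 ± 34.3, then Cfb at 53.2 ± 5.32, C3ar1 at 41.2 ± 16.9, C5ar1 at 33.1 ± 9.38 and C4b, now last, at 20.8 ± 11.6. C1qc and C3 did not overlap there, and the other neighbours below Serping1 did.

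Ratios within a mouse show how tightly the genes kept to each other; these are descriptions with no test. The ratio of C1qb to C1qc was 0.978 to 1.19 in No operation, 1.29 to 1.53 in SHAM and 1.23 to 1.42 in Laminectomy, so that both operated groups lay above the untouched tissue. The ratio of C1qa to C1qc overlapped between groups, at 1.03 to 1.11, 1.08 to 1.28 and 1.05 to 1.25. The sum of the 3 chains against the sum of the 11 macrophage markers also overlapped, at 0.175 to 0.405, 0.22 to 0.296 and 0.165 to 0.251. Lyz2 was the largest term of the 11-marker sum, with means of 617 CPM in No operation, 3094 CPM in SHAM and 2493 CPM in Laminectomy. Against Adgre1 and Csf1r alone the C1q sum was at 1.07 to 1.83, 1.34 to 2.01 and 1.13 to 1.56.

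Other ratios were chosen after the values were seen. C3ar1 to C5ar1 was 0.652 to 1.17 in No operation, 1.46 to 1.82 in SHAM and 1.86 to 2.36 in Laminectomy, without overlap between any of the groups. C3ar1 against Adgre1 and Csf1r was 0.0665 to 0.153, 0.206 to 0.332 and 0.239 to 0.368. Of the 11 macrophage markers, 3 had larger fold changes than C3ar1 in SHAM (Fcgr1, Aif1 and Cd14) and 3 in Laminectomy (Fcgr1, Aif1 and Cx3cr1), and the other 8 had smaller ones in each, Adgre1 and Csf1r among them. C3 to Cfb was 6.35 to 11.3 in No operation, 2.01 to 4.36 in SHAM and 1.09 to 3.80 in Laminectomy.

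**Figure D3:**
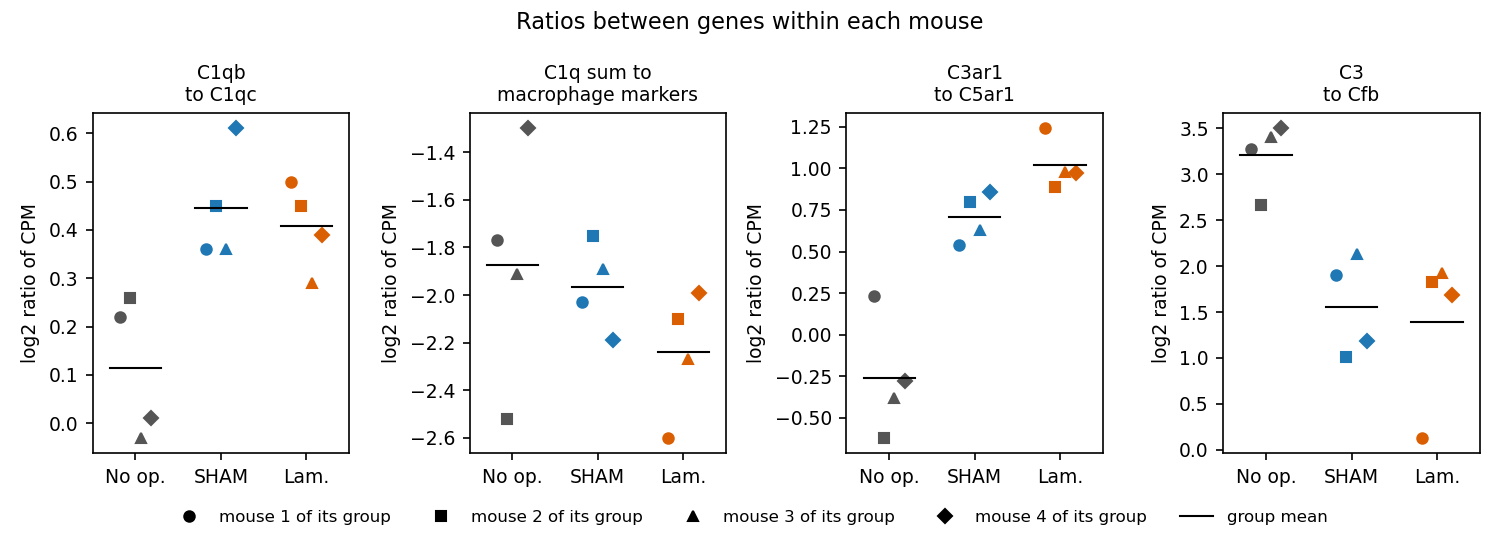
Log2 ratios of CPM within each mouse for 4 pairs of quantities, by group, with a symbol for each mouse and a line at the group mean. C1qb to C1qc and C3ar1 to C5ar1 lie higher in both operated groups than in No operation, C3 to Cfb lies lower, and the C1q sum against macrophage markers overlaps.

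Likeness of pattern was measured as the root mean square difference of centred log2 CPM over the 12 mice, where 0 means the same pattern. The C1q chains differed from each other by 0.10 to 0.18. Among 10560 other genes searched, the closest to each of them was Stab1, a scavenger receptor of tissue macrophages, at 0.14 for C1qa and 0.16 for C1qb and C1qc. Next came Kctd11 and B4galt5 for C1qa, P2rx4 and P2ry6 for C1qb, and Kctd11 and Apoe for C1qc, at 0.16 to 0.18.

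The closest genes to C3ar1 were Ctss, which encodes cathepsin S, at 0.16, Basp1 at 0.17 and Msr1 at 0.21. Those closest to C5ar1 were Tnfrsf1b, a TNF receptor, at 0.16, and Tlr2 and Cd200r1 at 0.17 each. The remaining genes had no neighbour as close. C3 was nearest to Agtr1a, an angiotensin II receptor, at 0.36, then Dpep1 at 0.41 and Slit3 at 0.42. C4b was nearest to Dpep1 at 0.41, Tmeff2 at 0.42 and Ccl11 at 0.45, Serping1 to Tgfbr3 at 0.30, Efemp1 at 0.33 and Adamts5 at 0.34, and Cfb to Ppp1r3b at 0.27, Abca1 at 0.31 and Pltp at 0.32. Within the 9 genes and outside the C1q chains, C5ar1 differed from the chains by 0.36 to 0.50, C3 from Serping1 by 0.38, Cfb from the chains by 0.47 to 0.50, C3 from C4b by 0.56, C3ar1 from C5ar1 by 0.58, and the most unlike pair, C4b and C3ar1, by 2.49.

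The rest of the pathway was read from a list of 42 further complement genes, of which 41 were analysed and 30 passed the filter. Against No operation, 17 of the 30 were called in SHAM, 9 higher and 8 lower, and 18 in Laminectomy, 7 higher and 11 lower. Over all genes tested 25.7% were called higher and 25.1% lower in SHAM, and 24.2% and 24.4% in Laminectomy. Their median log2 fold changes were 0.12 and -0.63. The 2 comparisons share their No operation mice.

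The proteases that C1q activates did not all follow it. C1ra was at 157, 103, 146 and 108 CPM in No operation, 449, 259, 221 and 165 CPM in SHAM and 62.6, 90.5, 112 and 129 CPM in Laminectomy. It rose 2.13-fold in SHAM (adjusted p = 0.00892 by edgeR) and was not called in Laminectomy (log2 fold change -0.38, adjusted p = 0.296). C1s1 had log2 fold changes of 0.79 in SHAM (adjusted p = 0.0855 by edgeR) and -0.53 in Laminectomy (adjusted p = 0.235), and was called in neither. C1s2, at 0.276 to 0.561 CPM in No operation and 1.01 to 4.61 CPM in SHAM, rose 5.54-fold there (adjusted p = 0.00939). Of the lectin pathway, Masp1 was called lower in both comparisons, and Colec11, at 1.20 to 1.89 CPM in No operation and 0.212 to 0.72 CPM in Laminectomy, fell by 1.88 on the log2 scale there (adjusted p = 0.00229).

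Among convertase and alternative pathway genes, C2, the partner of C4 in the classical convertase, was at 36.5, 56.2, 41.9 and 39.0 CPM in No operation, 87.4, 51.8, 58.7 and 28.1 CPM in SHAM and 8.74, 14.0, 21.9 and 17.9 CPM in Laminectomy. It was called lower in Laminectomy (log2 fold change -1.47, adjusted p = 0.00294 by edgeR) and not called in SHAM (0.38, adjusted p = 0.33); 42.8% of its exon bases are shared on the same strand with Gm20547. Properdin, which stabilises the alternative convertase, rose in both: Cfp was 5.52-fold higher in SHAM (adjusted p = 6.55e-05 by edgeR) and 2.75-fold higher in Laminectomy (adjusted p = 0.002). C4a was not called in either, with log2 fold changes of 0.29 (adjusted p = 0.436) and -0.23 (adjusted p = 0.553).

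Cfd encodes factor D, which fat cells make as adipsin. It was at 883, 1273, 1177 and 1383 CPM in No operation, 97.1, 15.6, 991 and 25.5 CPM in SHAM and 1.48, 24.7, 66.9 and 83.6 CPM in Laminectomy. It fell by 4.74 on the log2 scale in Laminectomy (adjusted p = 0.0122 by edgeR) and was not called in SHAM (-2.06, adjusted p = 0.168), where mouse 3 kept a level near that of untouched tissue. The adipocyte marker Adipoq followed the same mice, with 214, 480.1, 289 and 368 CPM in No operation, 43.9, 9.04, 203 and 21.0 CPM in SHAM and 2.49, 18.8, 36.0 and 30.6 CPM in Laminectomy. All 5 adipocyte markers were called lower in Laminectomy and 3 of 5 in SHAM, and their part in the Cfd values was not tested.

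Of the terminal components, which form the membrane attack complex, 3 of 7 passed the filter. C7 was called lower in both comparisons, with log2 fold changes of -2.24 in SHAM (adjusted p = 0.0285 by edgeR) and -4.39 in Laminectomy (adjusted p = 0.00149). C8g, at 1.32 CPM or less in all 12 mice, was also called lower in both, and C6 in neither. Hc, which encodes C5, the source of the ligand of C5ar1, did not pass the filter and was at 1.75 CPM or less in all 12 mice.

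Of the fluid-phase regulators, 2 of 4 were called lower and 1 higher in each comparison, and of the membrane regulators 3 of 6 lower and none higher, where 25.1% of all genes were called lower in SHAM and 24.4% in Laminectomy. In SHAM the largest drops among regulators were those of Vtn (log2 fold change -1.71, adjusted p = 0.00144 by edgeR) and Clu (-1.64, adjusted p = 0.000827), which encode vitronectin and clusterin, and Cd46, a membrane cofactor (-1.63, adjusted p = 0.000376). In Laminectomy Cd55, which encodes decay-accelerating factor, was called lower (-1.83, adjusted p = 0.000807 by edgeR). The regulator that rose was Cfi, which encodes factor I, the protease that cleaves C3b. It rose 10.8-fold in SHAM (adjusted p = 9.40e-06 by edgeR) and 6.45-fold in Laminectomy (adjusted p = 5.26e-05), from 0.126 to 0.21 CPM in No operation to 1.34 to 2.12 CPM in SHAM and at most 1.23 CPM in Laminectomy.

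Of 6 further receptor genes 5 rose in each comparison, where 25.7% of all genes were called higher in SHAM and 24.2% in Laminectomy. C5ar2, the second C5a receptor, rose 3.76-fold in SHAM (adjusted p = 0.000137 by edgeR) and 2.62-fold in Laminectomy (adjusted p = 0.00122). The integrin chains of complement receptors 3 and 4 rose with it: Itgax by 5.45-fold and 5.73-fold (adjusted p = 0.000427 and 0.000414), Itgb2 by 4.52-fold and 3.47-fold (0.00289 and 0.00872) and Itgam by 5.18-fold and 2.93-fold (0.00307 and 0.0267). Of the Itgam exon bases 68.7% are shared on the same strand with Gm49368. Vsig4, a C3b receptor of resident macrophages, was called in neither. Of the macrophage markers 10 of 11 were called higher in SHAM and 9 of 11 in Laminectomy. Of 6 neutrophil markers Csf3r alone was called in SHAM, 6.13-fold higher (adjusted p = 0.00661 by edgeR), and none in Laminectomy. The part of these markers in the receptor values was not tested.

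**Figure D4:**
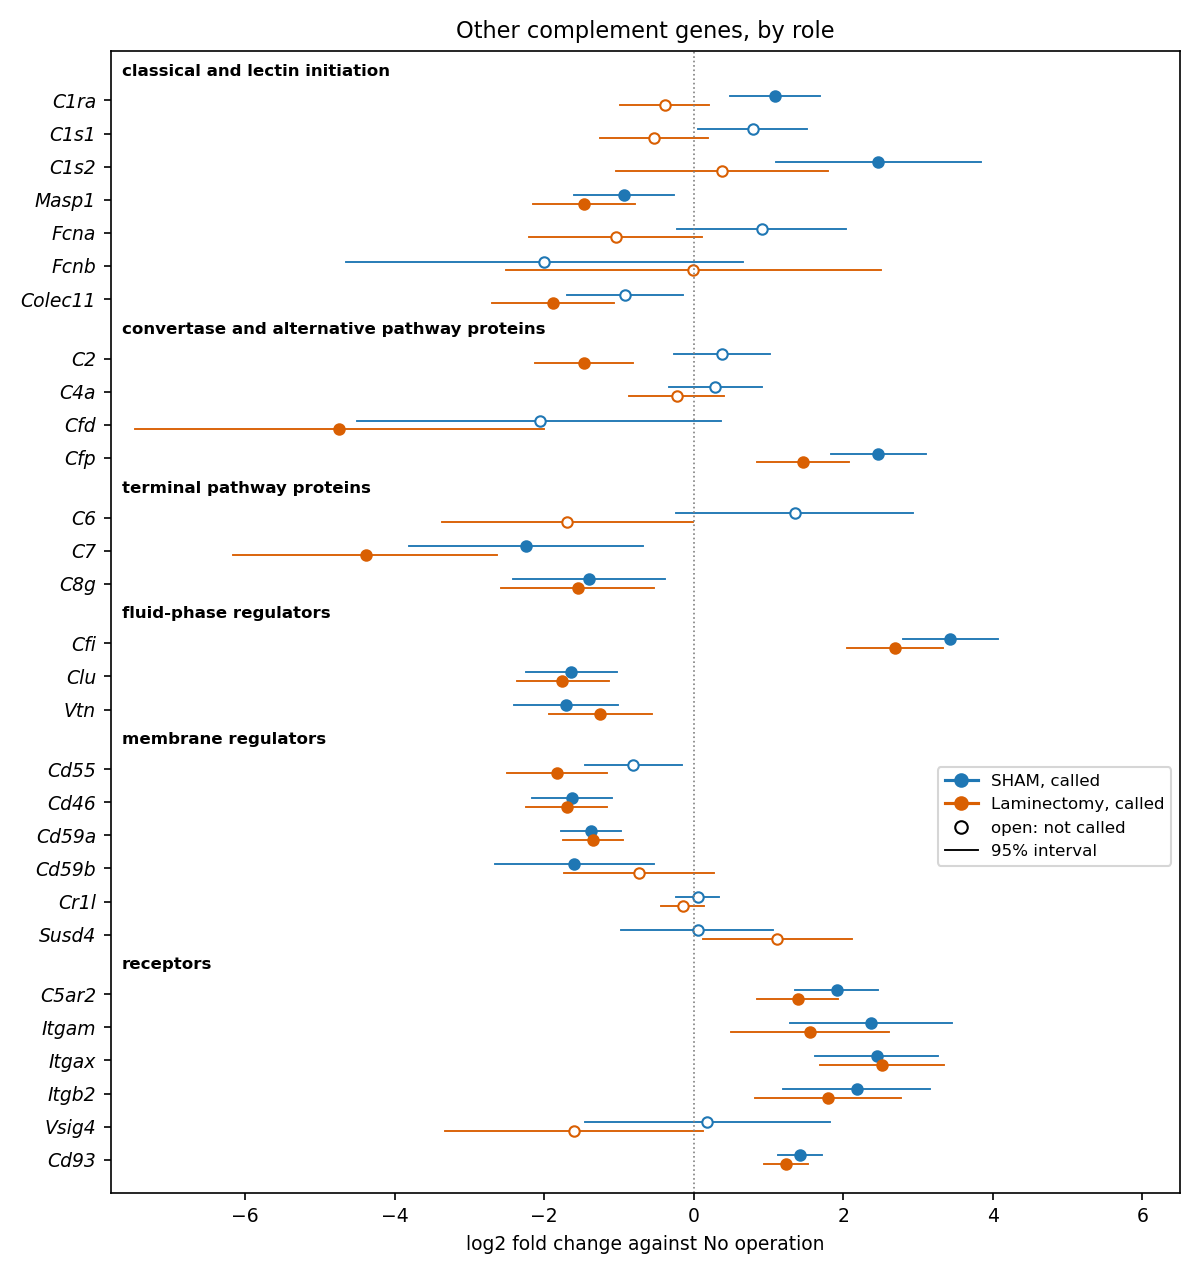
Log2 fold changes against No operation of the further complement genes that passed the filter and are reported here, grouped by role, for SHAM (blue) and Laminectomy (orange) by edgeR, with lines for 95% intervals and filled points where called. Cfp, Cfi and the receptors other than Vsig4 lie to the right in both groups, C7, Clu, Vtn, Cd46 and Cd59a to the left in both.

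Between Laminectomy and SHAM edgeR called none of the 30, while 24 were lower by sign, against 49.4% of all genes, and 11 had an unadjusted p below 0.05, all of them lower, against 16.0% of all genes in either direction and 9.03% lower. DESeq2 called 6 of the 30 lower in Laminectomy, namely C2 (adjusted p = 7.2e-05), C1ra (0.000757), C1s1 (0.0182), C6, Fcna and Cfp, against 2.24% of all genes it called lower. It also called C1rb lower, which had not passed edgeR's filter.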

How the data were processed

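The submitters' processing notes name STAR 2.6.1b, featureCounts 2.0.1, DESeq2 1.30.1 and the GRCm38 build. The authors prepared stranded polyA libraries and deposited 1 table of estimated counts per gene for the 12 mice; 10.2% of the values were not whole, so they were rounded, by at most 0.5. The planned test had assumed whole counts. The study's methods give default settings for featureCounts, which leave out reads that overlap more than 1 gene, ignore strand and return whole numbers; how values that are not whole arose is not given in the sources used here, so the handling of shared reads in this table is uncertain. None of the 9 genes shares exon bases with a gene on the other strand, whereas C1s1, C2, Cd46, Cd55, Cd55b, Fcna, Hc and Masp2 do.

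Genes with low counts were removed with filterByExpr (4231 of 18996), and the rest were fitted with edgeR 4.0.16 in R 4.3.3, with TMM scaling, group as the only term and all 12 mice in 1 fit. Calls needed an adjusted p (Benjamini-Hochberg) below 0.05 together with a log2 change of over 0.5 either way. CPM used the same scaling, and scaling factors ran from 0.8487 to 1.134. DESeq2 1.42.0 was run as an alternative. SE stands for the standard error on the log2 scale, and 95% intervals are the normal ones built on it. The fitting functions were checked on simulated counts with the same spread for every gene, which does not show how they perform at the spread of these data. Groups and replicate numbers came from the labels, and no 2 libraries of a group agreed within sampling noise.

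The 9 genes, the gene lists and the tests were chosen with earlier results of these data known. Of the wider list, the text names in each comparison the 4 called genes with the largest rise and the 4 with the largest fall among those with a mean of at least 1 CPM in the higher group, and the genes that share a receptor, complex or near-identical sequence with one of the 9; others named were chosen after their values were seen. Of genes outside the lists it names the 3 closest in pattern to each of the 9, among genes with a mean of at least 10 CPM. Lists are described by counts, with no set test. Positions and exon lengths are from GENCODE for GRCm38. Alternatives were other scalings, no filter, the replicate number as a block, only the 2 groups compared, a stricter fold, leaving out each mouse, C4b and C4a summed, other macrophage markers and, chosen after seeing the data, leaving out SHAM 1 and Laminectomy 1 together and Laminectomy 2 and 3 together. A list of 5 endothelial markers lay between 449 and 789 CPM in sum in all mice, 6 neutrophil markers between 13.7 and 1698 CPM, and 5 neuron and glia markers between 1.97 and 158 CPM, above 13.5 CPM in Laminectomy mice 2 and 3 alone. The values of 1 gene of the wider list are not reported here, although the counts of the list include it.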

Additional observations from a re-analysis of the deposited data

Results flagged for a closer look

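A mouse far from the other 3 of its group was looked for in 138 groups of values, and 10 were found; chance alone flags about 1 in 20 groups. Laminectomy mouse 1 stood above the rest of its group for C1qb (339.9 CPM against 296 to 302), C3ar1 (286 against 138 to 146 CPM) and C5ar1 (121 against 70.7 to 74.4 CPM). No operation mouse 1 stood above its group for C1qb (196 against 81.9 to 94.0 CPM) and C3ar1 (53.4 against 10.4 to 16.9 CPM). In the wider list, Cfd in SHAM mouse 3 was at 991 CPM against 15.6 to 97.1 CPM, Cfp in SHAM mouse 1 at 393 against 163 to 187 CPM, Cfi in No operation mouse 4 at 0.21 against 0.126 to 0.138 CPM, and C4a in Laminectomy mouse 3 at 0.363 against 0.874 to 0.90 CPM, the last 2 resting on few counts. The ratio of summed C1q to Adgre1 and Csf1r was 2.01 in SHAM mouse 2 against 1.34 to 1.42.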

How the results depend on the processing

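Of 795 values recomputed under the alternatives, 764 kept their side of the threshold or moved by less than the set limits, and no called value changed sign. Uncalled values that changed sign count among the 764. For C4b in SHAM against No operation, at 0.17 in the main fit, the lowest value was -0.2 when 1 mouse was left out. Of the 570 log2 fold changes of the 9 genes, 20 lost and 9 gained a call. With DESeq2, 5 of the 9 genes and 7 of the wider list, 6 of them among the 30 that edgeR tested, were called between Laminectomy and SHAM, where edgeR called 0; the cause was not tested. Members called in SHAM against No operation stayed at 6 in every fit, and those in Laminectomy against No operation ranged from 6 to 9 when 1 mouse was left out; for the wider list the ranges were 13 to 20 and 17 to 19. With plain library sizes the median gene moved by 0.255 in SHAM and 0.319 in Laminectomy against No operation, and calls were 5179 higher and 2671 lower, and 5456 higher and 2347 lower, against 3799 and 3703, and 3578 and 3605. The mice share only a number across groups: 7 of 12 same-number pairs correlated above 0.1, from -0.228 to 0.352. With the replicate block 6, 7 and 0 of the 9 genes were called in the 3 comparisons: C3 (-1.05, adjusted p = 0.0818 by edgeR) and Serping1 (-0.87, 0.0793) were not called in Laminectomy against No operation, and Cfb was (0.59, 0.0416). A threshold of 1 on the log2 scale removed Serping1. The 99 alternative ratios moved by less than the spread between mice. Depth did not limit the 9 genes, each at 10.4 CPM or more in every mouse. C4a, C8g, Cfi, Colec11 and Hc, near or below 1 CPM, are imprecise, as is C1s2 in No operation.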
